A study of Bos taurus with 12 samples.

Results

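The genes described here make, assemble or take up the fatty acids of stored fat, and their RNA was followed in cultured cattle skin. The set was named by Ensembl cattle gene ID and holds 6 genes, of which 5 were analysed among the 27607 genes of the count table: FASN (ENSBTAG00000015980), ACACA (ENSBTAG00000017567), DGAT1 (ENSBTAG00000026356), LPL (ENSBTAG00000012855) and FABP4 (ENSBTAG00000037526). SCD was not analysed here. The pairing of these IDs with gene names came with the choice of the set. The count table gives IDs alone, and the RefSeq table used here carried none of them, so the names could not be checked a second time.

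Fatty acids are built from acetyl-CoA in the cytosol. ACACA, acetyl-CoA carboxylase alpha, makes malonyl-CoA in the committed step, and FASN, fatty acid synthase, uses it to build palmitate. DGAT1, diacylglycerol O-acyltransferase, joins the last fatty acid to diacylglycerol to give triglyceride. LPL, lipoprotein lipase, releases fatty acids from circulating lipoproteins at the capillary wall, and FABP4 is the fatty acid carrier that fills the cytoplasm of adipocytes and is also made by capillary endothelium and macrophages. In skin, sebaceous glands and the epidermis make lipid for sebum and the permeability barrier, while adipocytes lie below the dermis. In the lactating mammary gland, insulin and prolactin are both known to sustain lipid synthesis genes.

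The skin came from Holstein heifers, sired by either of a pair of bulls heterozygous for slick. SLICK1, an allele of the gene for the prolactin receptor, gives cattle a short and sleek coat. A group of 6 libraries came from heifers labelled slick and a group of 6 from heifers labelled wild type, called non-slick here. Every explant, in both groups, was kept for 36 h at 38.5 °C in high-glucose medium with ovine prolactin at 50 ng/mL, insulin-transferrin-selenium at 5 µg/mL and hydrocortisone at 0.4 µg/mL. No explant was cultured without prolactin or insulin, so the values compare genotypes in their presence and hold no response to either hormone. The labels give no age, sire, plate or batch for a library, and do not say how many copies of the allele a slick heifer carried. Nor do they state that each library is a separate heifer. The p-values therefore rest on the variation among these 12 libraries, part of which may be technical.

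Library totals lay between 10903164 counts (slick 2, by far the lowest of its group) and 22036904 counts (slick 5). Slick 4 lay farthest out on the first principal component of log2 expression, which held 19.9% of the variance. Several values that moved without slick 2 or slick 4 are given with and without them. Markers of adipocytes, sebaceous glands and other skin cells could not be matched to the IDs and were not analysed here. In whole explants, fewer cells of a type and less RNA per cell cannot be told apart.

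None of the 5 genes differed between slick and non-slick explants at an adjusted p of 0.05 in the quasi-likelihood test of edgeR, in which 0 of all 14594 genes tested (0%) passed. At an unadjusted p under 0.05 edgeR also listed 0 of the 5, beside 811 of all genes (5.56%). DESeq2 and limma-voom likewise called 0 of the 5, and listed 0 at an unadjusted p under 0.05. The share of all genes that either method called is not given here. The fitted log2 fold change was above 0, toward slick, for 4 of the 5 genes and for 50.6% of all genes tested, and below 0 for LPL. The median log2 fold change, slick minus non-slick, was 0.13 over the 5 genes and 0.00312 over all genes tested. In none of the 5 did the libraries of the genotypes separate without overlap, as they did for 41 genes (0.281%) of all those tested.

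The genotype comparison was far tighter for the enzymes than for the uptake genes. For FASN, ACACA and DGAT1 the 95% interval of the fold change lay within 1.5-fold in either direction, as it did for 54.5% of all genes tested. For LPL and FABP4 it reached past 2-fold, where 78.6% of all genes had an interval within that limit.

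**Figure D1:**
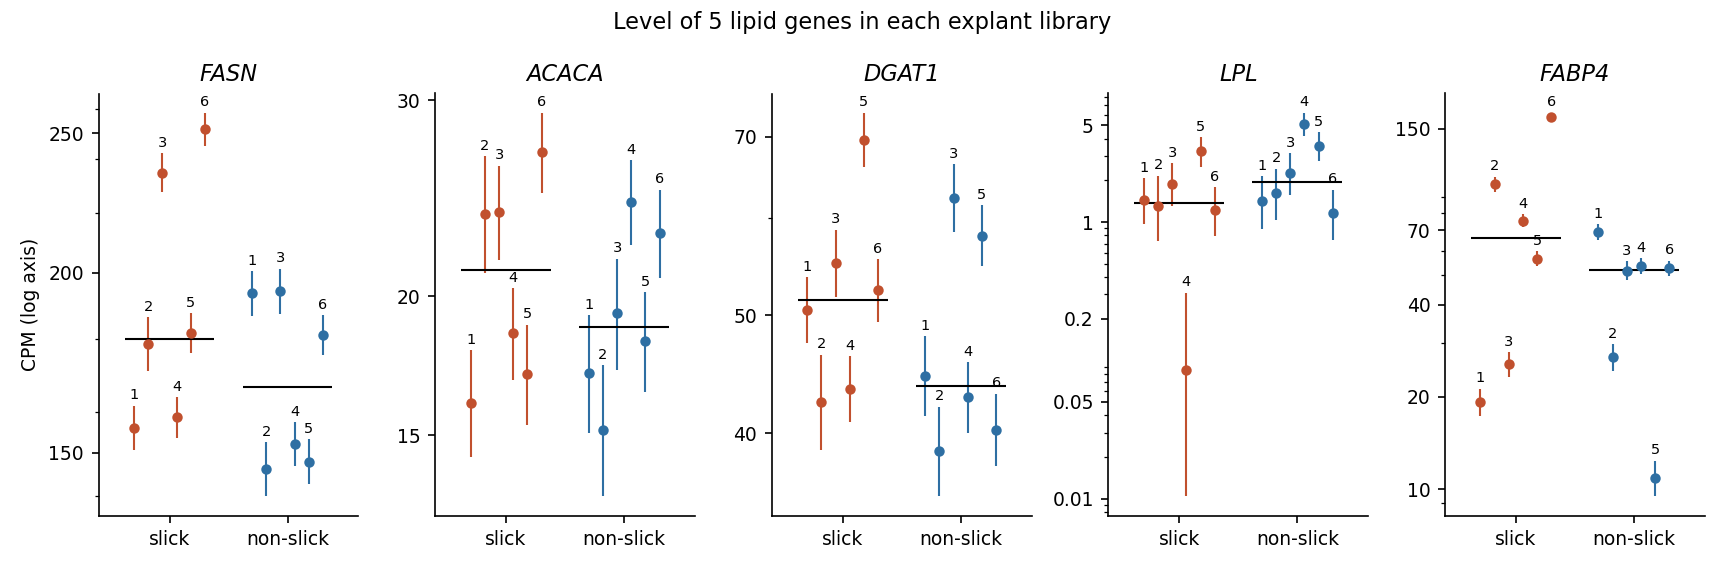
Level of each gene in every library, in CPM (counts scaled to a common library size) on a log axis. Points are libraries numbered by replicate, bars are exact Poisson 95% intervals that cover counting error alone, and black lines are group medians. The genotypes overlap in all 5 panels, and LPL in slick 4, at 0.0856 CPM, lies below all other libraries.

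In CPM, counts scaled to a common library size, FASN had 156 CPM in the lowest slick library, a median of 180.03 CPM and 252 CPM in the highest. In non-slick explants FASN ran from 146 CPM through a median of 167 CPM to 194 CPM. The highest slick libraries, slick 6 and slick 3, lay above every non-slick library, and 3 non-slick libraries lay below every slick library, while the remaining libraries overlapped. Slick libraries averaged 194 ± 40.1 CPM of FASN, against 169 ± 23.0 CPM in the non-slick group (SD, n = 6 each). The log2 fold change of FASN was 0.19 (SE 0.13, 95% interval -0.089 to 0.48, edgeR adjusted p = 0.846), a 1.14-fold higher fitted level in slick explants. With all 12 libraries the interval runs from a 0.940-fold to a 1.39-fold level. A difference in the transcript of fatty acid synthase above 1.5-fold is outside that interval. Without slick 6, the library with the highest FASN level, the log2 fold change was 0.11, the lowest with 1 library left out. With both slick 2 and slick 4 left out, the log2 fold change was 0.29 (SE 0.15). No interval was taken for that fit, so the 1.5-fold limit is not shown to hold there.

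ACACA, the enzyme one step before FASN, ran from 16.0 CPM through a median of 21.1 CPM to 26.9 CPM in slick explants. In non-slick explants it ran from 15.2 CPM through 18.8 CPM to 24.3 CPM. Slick 6 was again the highest library and non-slick 2 the lowest, as for FASN, and 5 of 6 slick libraries lay within the range of the non-slick libraries. The log2 fold change of ACACA was 0.11 (SE 0.16, 95% interval -0.23 to 0.44, edgeR adjusted p = 0.926). It became 0.024 without slick 6 and 0.18 without non-slick 4. The mean level of ACACA was 21.0 ± 4.41 CPM over slick libraries, and 19.5 ± 3.47 CPM over those of the other genotype (SD, n = 6 each). The RefSeq table of the ARS-UCD2.0 assembly lists 3 other genes that overlap ACACA, the protein-coding C19H17orf78 among them. Whether reads of these were counted for ACACA was not tested.

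DGAT1, which closes the path to triglyceride, ran from 42.4 CPM through a median of 51.4 CPM to 69.6 CPM in slick explants. In non-slick explants it ran from 38.7 CPM through 43.7 CPM to 62.4 CPM. Slick 5 was the highest, followed by non-slick 3 and non-slick 5, so the upper end of the range held both genotypes. The log2 fold change of DGAT1 was 0.13 (SE 0.15, 95% interval -0.18 to 0.44, edgeR adjusted p = 0.889), on means of 52.3 ± 9.85 CPM and 47.8 ± 9.93 CPM (SD, n = 6 each). Leaving out slick 5 brought the log2 fold change to 0.035, and leaving out non-slick 3 to 0.23. With both slick 2 and slick 4 left out, the log2 fold change was 0.25 (SE 0.15). In the RefSeq table DGAT1 overlaps HSF1, the gene of heat shock factor 1, and no source used here gives the strand setting of the counting. The overlap could have added HSF1 reads to the DGAT1 count or cost it reads of its own, and neither was tested.

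LPL was the scarcest of the 5 transcripts by count, with 2 to 106 reads per library. In slick explants it ran from 0.0856 CPM through a median of 1.38 CPM to 3.24 CPM. In non-slick explants it ran from 1.16 CPM through 1.95 CPM to 5.11 CPM. The lowest value stood on 2 reads in slick 4, with an exact Poisson 95% interval of 0.0104 to 0.309 CPM for counting error alone. That interval ends below the lowest value of the other 11 libraries, and the total of slick 4, 21044979, was among the higher ones. The highest LPL levels were in non-slick 4 and non-slick 5, with slick 5 next.

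The log2 fold change of LPL was -0.72 (SE 0.55, 95% interval -1.89 to 0.45, edgeR adjusted p = 0.855), on means of 1.54 ± 1.03 CPM (slick) and 2.52 ± 1.53 CPM (non-slick, SD, n = 6 each). Without slick 4 it was -0.46 (SE 0.43, adjusted p = 0.999). Without non-slick 4, where LPL was highest, it was -0.38 (SE 0.57, adjusted p = 0.97), and without slick 5 it was -1.09 (SE 0.57, adjusted p = 0.70). A lower level of the lipase transcript in slick explants of up to 3.70-fold lies within the interval, as does an equal level. The direction was the same in all 22 alternatives, and none passed the threshold.

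FABP4 varied far more between explants than the 3 enzymes did. In slick explants it ran from 19.2 CPM through a median of 66.0 CPM to 164 CPM, and in non-slick explants from 10.8 CPM through 52.1 CPM to 69.0 CPM. The libraries slick 6, slick 2 and slick 4 lay above every non-slick library, yet slick 1 and slick 3 were, after non-slick 5, the lowest of all 12. The carrier transcript averaged 73.3 ± 53.6 CPM over slick libraries, against 44.1 ± 21.2 CPM over non-slick libraries (SD, n = 6 each). The log2 fold change of FABP4 was 0.73 (SE 0.56, 95% interval -0.50 to 1.97, edgeR adjusted p = 0.861). Without slick 6 it was 0.32 (SE 0.53, adjusted p = 0.973), so 1 library carried much of the fitted difference. Without slick 4 it was 0.73, and without slick 2 it was 0.63.

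**Figure D2:**
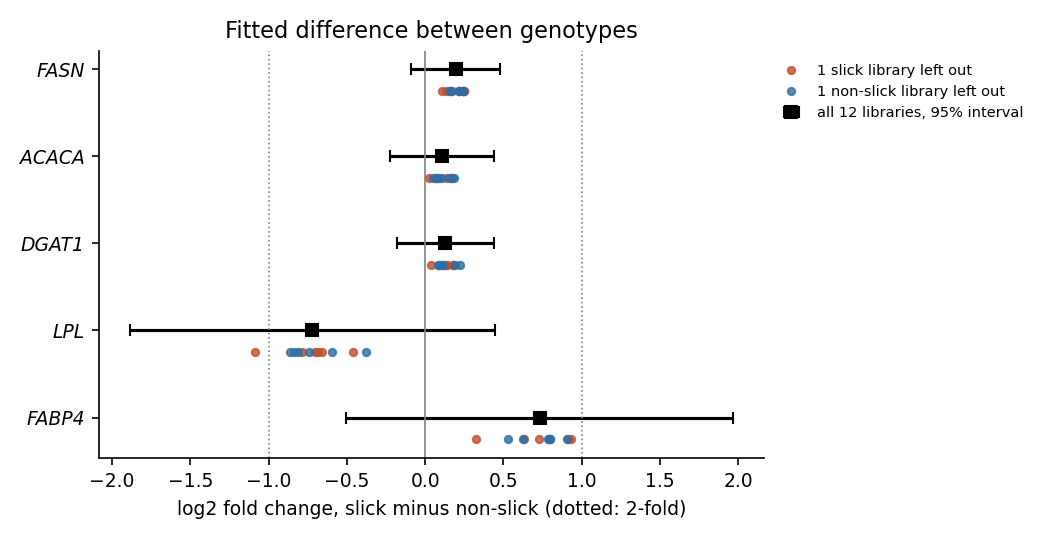
Log2 fold change of each gene, slick minus non-slick, fitted with edgeR. Squares and bars are the estimate and 95% interval over 12 libraries, and dots are the estimates with 1 library left out. All 5 intervals include 0, and those of LPL and FABP4 reach past the dotted line of a 2-fold difference.

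The genes fell into a steady and a variable kind, and this did not follow from counting error alone. Over all 12 libraries the highest level exceeded the lowest 1.72-fold for FASN, 1.78-fold for ACACA and 1.80-fold for DGAT1. For FABP4 the same ratio was 15.1, and 8.52 without its lowest library, non-slick 5, or 9.12 without its highest, slick 6. For LPL it was 59.8, resting on the 2 reads of slick 4, and 4.42 without that library. The SD of log2 CPM within genotypes was 0.25 for FASN, 0.28 for ACACA and 0.27 for DGAT1, below the median of 0.31 over all genes tested. It was 1.08 for FABP4, above that of 95.4% of genes, and 1.14 for LPL, above that of 96.4%.

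FABP4 and LPL differ in what can be read from that spread. FABP4 had 220 to 3493 reads per library, for which counting alone gives a coefficient of variation of 6.74% at most. Its biological coefficient of variation, the spread that edgeR attributes to the samples beyond counting, was 64.6%, where the trend over genes of like abundance was 19.5%. LPL was low enough that its trend value was already 46.8%, and its own was 63.5%. Without slick 4 the SD of LPL fell to 0.68 on the log2 scale. The enzymes stood close to their trend, at 18.3% against 20.1% for FASN, 20.2% against 22.6% for ACACA and 19.2% against 19.7% for DGAT1.

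Within each genotype, the spread of FABP4 and LPL rested in part on single libraries. The SD of the log2 CPM of FABP4 was 1.17 in slick and 0.99 in non-slick explants, and the latter became 0.51 without non-slick 5. For LPL the SD was 1.40 in slick and 0.79 in non-slick explants. Without slick 4 the slick value became 0.54, which turned the order of the genotypes. For the 3 enzymes they lay between 0.20 and 0.30 in either genotype. The difference in spread between genotypes was not tested.

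**Figure D3:**
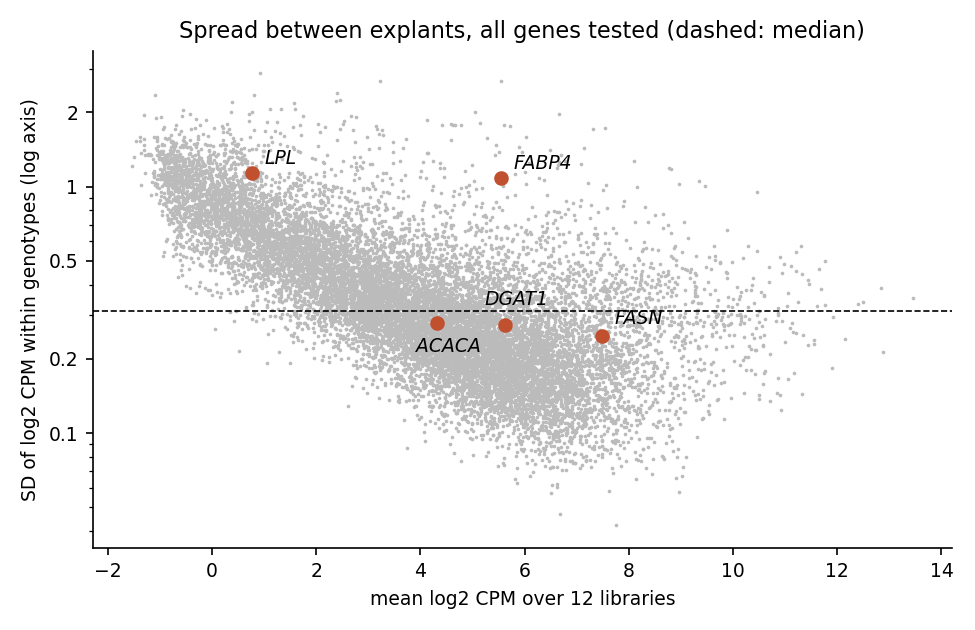
SD of log2 CPM within genotypes (log axis) against mean log2 CPM, for the 14594 genes tested (grey) and the 5 lipid genes (red). The dashed line is the median SD, 0.31. FABP4 lies above most genes of its abundance, LPL lies among the scarce genes, and the 3 enzymes lie a little below the dashed line.

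Whether the genes varied together from explant to explant was examined in all 10 pairs, with permutation tests adjusted over the 10. No pair passed an adjusted p of 0.05. By Pearson r the closest was FASN with ACACA, successive enzymes of one path (Pearson r = 0.58, permutation p = 0.0477, adjusted p = 0.318, Spearman rho = 0.48, permutation p = 0.116, adjusted p = 0.323, n = 12 libraries). By Spearman rho, LPL with FABP4 lay farther from 0 (rho = -0.53, permutation p = 0.0794, adjusted p = 0.323). For FASN and ACACA, r was 0.19 without slick 3 and slick 6, the libraries farthest from the FASN median. Removing them also narrows the range of FASN, so this value cannot tell whether the relation rests on them. Dropping slick 6 alone gave an r of 0.40, the lowest with 1 library left out, and dropping slick 3 alone gave 0.52. The highest was 0.75, when non-slick 4 was dropped (permutation p = 0.00862, adjusted p = 0.0862). Within slick libraries r was 0.82 (exact permutation p = 0.0542, n = 6) and within non-slick libraries 0.11 (exact permutation p = 0.825, n = 6), and the difference between these was not tested. As deviations from the group means, FASN and ACACA had r = 0.56 (permutation p = 0.0876, adjusted p = 0.438), and DGAT1 and LPL had r = 0.54 (permutation p = 0.0802, adjusted p = 0.438).

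FABP4 had a positive r with both synthesis enzymes that did not pass the test. Its r was 0.51 with FASN (permutation p = 0.0914, adjusted p = 0.318, rho = 0.41, permutation p = 0.194, adjusted p = 0.323) and 0.63 without slick 3 and slick 6. With ACACA it was also 0.51 (permutation p = 0.0954, adjusted p = 0.318, rho = 0.41, permutation p = 0.185, adjusted p = 0.323) and 0.30 without slick 6 and non-slick 4. Slick 6 held the highest level of all 3 genes, and without that library alone r fell to 0.27 for FASN with FABP4 and to 0.33 for ACACA with FABP4. Without slick 3 alone they were 0.75 and 0.63.

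The r of LPL with FABP4, the other uptake gene, was below 0 and did not pass either. It was -0.35 (permutation p = 0.259, adjusted p = 0.502, rho = -0.53, permutation p = 0.0794, adjusted p = 0.323) and -0.52 without slick 4 and non-slick 4. Non-slick 5, the library with the lowest FABP4 level, had the next to highest LPL level, and slick 4, the lowest in LPL, was among the highest 3 in FABP4. Without non-slick 5 the r of LPL and FABP4 was -0.23. LPL and DGAT1 had r = 0.38 (permutation p = 0.225, adjusted p = 0.502, rho = 0.46, permutation p = 0.135, adjusted p = 0.323) and 0.25 without slick 5 and non-slick 3. The other 5 pairs had r between -0.18 and 0.33, with adjusted permutation p from 0.502 to 0.892.

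Set beside all genes, the members were not each other's nearest neighbours. Ranked by Pearson r with FASN in log2 CPM over 12 libraries, ACACA stood at place 298 of the 14593 other genes tested. FABP4 stood at place 641, DGAT1 at 2405 and LPL at 8376. The gene most like FASN was ENSBTAG00000048916 (r = 0.86), and the gene most like FABP4 was ENSBTAG00000012003 (r = 0.89). No name is paired with either ID here. For FABP4, 247 genes had r above 0.7, and for LPL 529, against 67 for FASN, 125 for ACACA and 112 for DGAT1. Genes with r below -0.7 numbered 207 for FABP4, 396 for LPL, 82 for FASN, 115 for ACACA and 57 for DGAT1. Counts without slick 4, where LPL was lowest, were not taken. These ranks describe the same 12 libraries, which share their depth and composition with every gene in them.

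Taken over both genotypes together, LPL was lower in libraries with a high score on the main axis of variation between explants. With all 12 libraries it passed the test, and without slick 4 it did not. It had r = -0.82 with the score on the first principal component (permutation p = 0.00188, adjusted over 5 genes p = 0.00940, rho = -0.77, permutation p = 0.00472, adjusted p = 0.0236, n = 12 libraries). Without slick 4 its r was -0.58 (permutation p = 0.0593, adjusted p = 0.0742), and without slick 4 and slick 6 it was -0.51, so the call was not kept without slick 4. FABP4 had r = 0.61 (permutation p = 0.0371, adjusted p = 0.0926, rho = 0.65, permutation p = 0.0254, adjusted p = 0.0636), 0.67 without slick 4 (permutation p = 0.0244, adjusted p = 0.0638) and 0.52 without slick 4 and slick 6. FASN (r = 0.28, permutation p = 0.377, adjusted p = 0.427), ACACA (r = 0.38, permutation p = 0.231, adjusted p = 0.385) and DGAT1 (r = -0.26, permutation p = 0.427, adjusted p = 0.427) did not pass. Their rho was 0.43, 0.41 and -0.11 (permutation p = 0.161, 0.183 and 0.734, adjusted p = 0.229, 0.229 and 0.734). Without slick 4 alone, r was 0.63 for FASN (permutation p = 0.0383, adjusted p = 0.0638), 0.66 for ACACA (permutation p = 0.0307, adjusted p = 0.0638) and -0.16 for DGAT1 (permutation p = 0.638, adjusted p = 0.638), none past the threshold. Without slick 4 and slick 6 their r was 0.43, 0.53 and -0.25. The component was computed from all genes tested, these 5 included, and from all 12 libraries. Its scores were kept unchanged when libraries were left out, so those values do not describe an axis of the remaining libraries alone. Scores were highest in slick 4 (62.96), slick 6 (29.3), non-slick 6 (22.8) and slick 2 (16.8). They were lowest in non-slick 2 (-32.0), non-slick 3 (-23.2), non-slick 4 (-22.4) and slick 1 (-21.4). Group means were not taken out here, so each r may hold a difference between genotypes. Whether the relations hold within a genotype was not tested. The scaling factor of each library (TMM) was highest in slick 4 (1.11), non-slick 6 (1.08), slick 6 (1.07) and slick 2 (1.05). It was lowest in non-slick 2 (0.918) and non-slick 3 (0.927). The relation of the component to this factor, to cell make-up or to RNA quality was not tested.

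**Figure D4:**
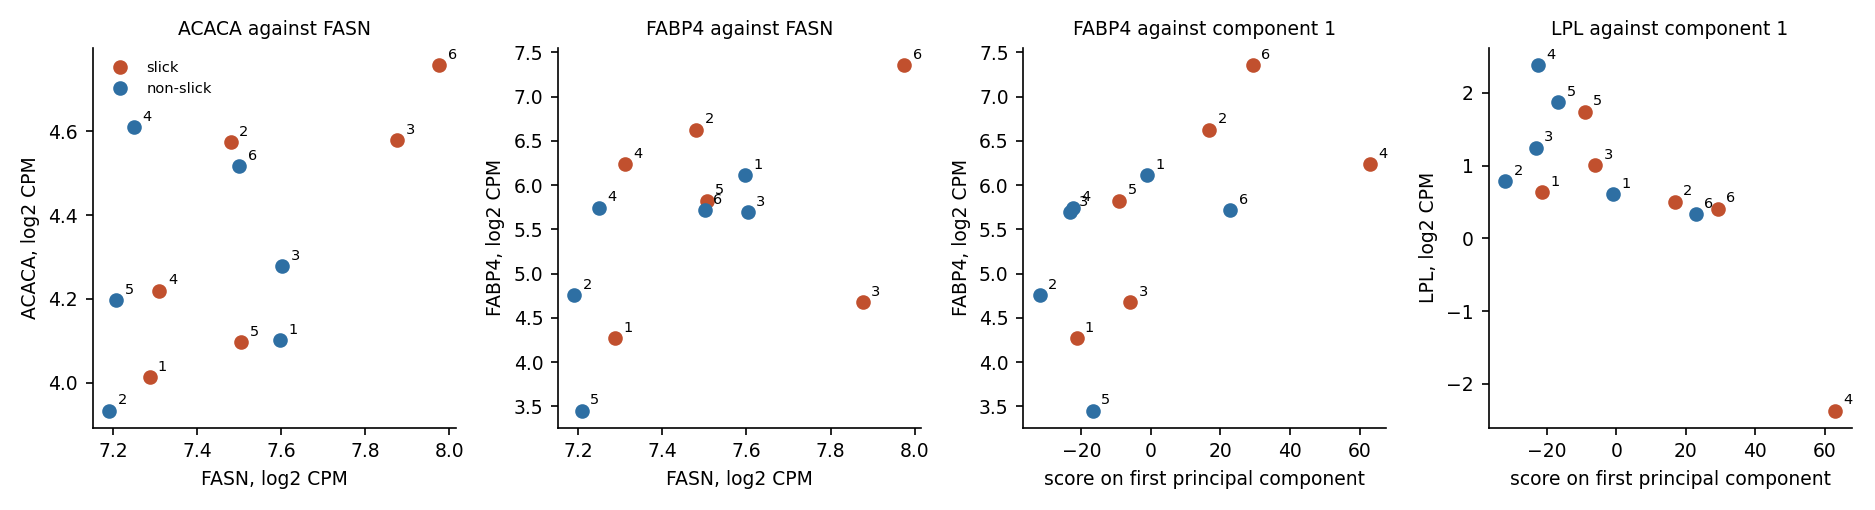
Libraries plotted by log2 CPM of ACACA against FASN, FABP4 against FASN, and FABP4 and LPL against the score on the first principal component, numbered by replicate within each genotype. Slick 6 lies at the upper right of both left panels, and slick 4 lies apart at the right of both right panels, at a score of 62.96.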

How the data were processed

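RNA was measured in 12 libraries, 6 slick and 6 non-slick. The authors deposited raw read counts per gene. FastQC, STAR, HTSeq and R 4.3.1 are named, with no role, in the submitters' processing notes. The genome build, the annotation and whether counting used strand are not given in the sources used here. A RefSeq table of 37063 genes (ARS-UCD2.0) served as reference and held an Ensembl ID for 0 of them, so the 90 genes listed for the pathway and for cell types were not analysed here.

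Genes kept by filterByExpr, 14594 with at least 99.9% of each library's counts, were scaled by TMM and tested with edgeR 4.0.16 (robust quasi-likelihood F-test, R 4.3.3), with genotype as sole term and Benjamini-Hochberg adjustment over all genes. CPM use TMM-adjusted library sizes, and log2 CPM a prior count of 2. The SE is the absolute log2 fold change over the square root of F. Correlations used 100000 two-sided permutations (Python 3.11.15, SciPy 1.17.1). DESeq2 1.42.0, limma 3.58.1, other scalings and filters, the replicate number as a block, and fits without each library were alternatives. The tests were tried on simulated data. No libraries agreed within sampling noise (chi-square per degree of freedom at least 16.4). Intervals on counts cover counting error only. The members and lists were chosen with earlier results of these data known. All 5 analysed members are named, with the gene most like FASN and FABP4 by r. The fit without slick 2 and slick 4 and the tests against the principal component were added after the data were seen.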

Additional observations from a re-analysis of the deposited data

Results flagged for a closer look

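Slick 2 had a total of 10903164 counts, far from the other 5 slick libraries: the distance to the next one was 0.663 of the group's range. It was 1 of 12 groups of values examined, 5 genes and the totals in each genotype, and chance marks about 1 in 20 groups. FASN in slick 2 stood at 178 CPM and FABP4 at 98.9 CPM. No group of CPM values of the 5 genes had a library that far from the rest. For LPL in slick 4, 0.0856 CPM, the measure was taken on the linear scale, where slick 5 was the more distant library.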

How the results depend on the processing

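None of the 5 genes passed an adjusted p of 0.05 or an unadjusted p of 0.05 in any of 22 alternatives, and none changed direction in them. Shares of all genes called in the alternatives are not given here. The log2 fold change ran from 0.11 to 0.29 for FASN, 0.024 to 0.18 for ACACA, 0.035 to 0.25 for DGAT1, 0.32 to 0.93 for FABP4 and -1.09 to -0.37 for LPL. Replicate numbers were not known to pair libraries: libraries that share a number had deviations with r from -0.09 to 0.26, and for 4 of 12 libraries the best match was the same number. Each library was matched against the 6 of the other genotype, and whether this count exceeds chance was not tested. With the replicate block the log2 fold change was 0.18 for FASN, 0.098 for ACACA, 0.13 for DGAT1, -0.69 for LPL and 0.64 for FABP4, and 0 genes of the set were called. No pair of genes passed an adjusted p of 0.05 in 18 alternatives. With library totals alone, r rose to 0.68 for FASN with ACACA (permutation p = 0.0144, adjusted p = 0.140). It rose to 0.62 for FASN with FABP4 (permutation p = 0.0301, adjusted p = 0.140) and to 0.60 for ACACA with FABP4 (permutation p = 0.0421, adjusted p = 0.140). For DGAT1 with LPL it fell to 0.18 (permutation p = 0.591, adjusted p = 0.845). Signs turned in pairs with r near 0. The r of FASN and LPL became 0.12 as deviations from group means and ran from -0.42 to 0.092 with 1 library left out. That of ACACA and LPL became -0.096 with library totals alone and -0.098 as Spearman rho, and ran from -0.092 to 0.14 with 1 library left out. That of ACACA and DGAT1 became 0.037 with library totals alone and ran from -0.33 to 0.083. The cause was not tested. The SD of LPL became 0.68 without slick 4, and the LPL relation to the first principal component lost its call there. Depth limits LPL most, at 2 to 106 reads.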
